A study of Mus musculus with 6 samples.

Results

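Glycolysis breaks glucose down to pyruvate in the cytosol, and several of its steps can be run by more than one enzyme, each made from its own gene and differing in regulation and in the cells that use it. The data described here are the mRNA levels of 10 such genes in mouse bone marrow, Hk1, Hk2, Hk3, Gpi1, Pfkl, Pfkm, Pfkp, Pklr, Ldha and Ldhb. They were chosen by name, each matched exactly 1 of the 23746 gene loci in every library, and all 10 passed the filter on low values (mean of at least 1 FPKM). FPKM counts fragments relative to transcript length and to the size of the library, so that levels of different genes can be set side by side.

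The libraries came from C57BL/6 mice of 12 weeks with 3 genotypes at Diap1, the formin gene now called Diaph1. These were Diap1 -/- (KO), Diap1 +/- (Het) and wild type (WT). For each genotype the marrow of 4 mice went into a single pool. Magnetic beads took out the cells carrying both Gr1 and Mac1, and lineage-negative progenitors (Lin-) were obtained by depletion from the rest. Each of the 6 combinations is 1 library, so the 3 libraries of a fraction differ in genotype. The labels give neither the sex of the mice nor the deleted part of Diap1.

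Mature red cells have no mitochondria and live from glycolysis, and in humans inherited lack of red cell pyruvate kinase causes haemolytic anaemia. Neutrophils also rely mainly on glycolysis. Bone marrow holds the forming cells of both lineages.

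Diap1 stood at 16.9% (KO) and 67.4% (Het) of the WT level in Lin- cells and at 7.13% (KO) and 59.7% (Het) in Gr1+Mac1+ cells. Between 10795 and 11315 loci per library reached 1 FPKM. Of 12 listed erythroid markers, 7 had higher levels in Lin- cells and 2 in Gr1+Mac1+ cells, and all 12 neutrophil markers were higher in Gr1+Mac1+ cells (limma, adjusted p under 0.05). By the same test 51.6% of all 11489 genes were higher in Lin- cells and 30.4% in Gr1+Mac1+ cells. The counts of erythroid and of stem and progenitor markers higher in Lin- cells are near that share. Counts for the other lists follow. Higher in Lin- cells were 6 of 7 stroma and endothelium markers (median log2 ratio 4.10), 8 of 9 megakaryocyte and platelet markers (2.23) and 5 of 8 stem and progenitor markers (1.22). Higher in Gr1+Mac1+ cells were all 10 B lineage markers (-3.44), all 10 monocyte markers (-3.14), 9 of 10 eosinophil, basophil and mast cell markers (-2.90) and 8 of 10 T and NK markers (-1.23). The part of these cell types in the differences between fractions was not tested. Kit, the receptor that marks progenitors, stood at 84.7 (KO), 66.4 (Het) and 72.6 FPKM (WT) in Lin- cells and at 14.9 to 15.7 FPKM in Gr1+Mac1+ cells. In the same list Ly6a was higher in Gr1+Mac1+ cells (log2 ratio -3.02), and Cd34 (0.29) and Flt3 (0.33) did not pass. The Het Lin- library stood apart: the 12 neutrophil markers summed to 80.8 FPKM in KO, 8141 in Het and 67.7 in WT Lin- cells. Sums of 10 monocyte markers were 60.3 (KO), 74.9 (Het) and 41.1 FPKM (WT), and of 10 eosinophil, basophil and mast cell markers 76.0 (KO), 453.8 (Het) and 60.1 FPKM (WT), in the same Lin- libraries. The stroma and endothelium list summed to 490 (KO), 776 (Het) and 409 FPKM (WT) there. Megakaryocyte and platelet markers summed to 248 (KO), 512 (Het) and 369 FPKM (WT), and B lineage markers to 13.1 (KO), 30.7 (Het) and 16.2 FPKM (WT). For T and NK markers the sums were 40.1 (KO), 47.9 (Het) and 49.5 FPKM (WT). Erythroid sums were 972 (KO), 964 (Het) and 921 FPKM (WT), and stem and progenitor sums 167 (KO), 143 (Het) and 144 FPKM (WT). The values are of whole fractions, so a smaller number of cells of a type and less RNA per cell cannot be told apart.

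Stretches upstream of 4 of the genes are shown. Pklr, Hk3 and Pfkm were taken because they differ most between the fractions. Ldha was taken because the stretch around its first start holds the most matches of ACGTG among the starts of these genes. Both strands were counted, and CACGTG, which reads the same on both, holds a match on each. They are the 250 bases before a transcript start in RefSeq (GRCm38.p6, the build called mm10), read 5′ to 3′ on the gene's strand. Capitals mark AGATAA, letters of the GATA factor motif, in Pklr and Pfkm, GGAAGT, letters of the ETS factor motif, in Hk3, and ACGTG, the core of the hypoxia-inducible factor motif, in Ldha, on either strand. The Pklr stretch lies before the first of its 2 starts (chr3:89135892-89136141, + strand), the Pfkm stretch before the second of 4 (chr15:98108221-98108470, + strand), the Hk3 stretch before its single start (chr13:55021386-55021635, - strand) and the Ldha stretch before the first of 2 (chr7:46845554-46845803, + strand).
Pklr: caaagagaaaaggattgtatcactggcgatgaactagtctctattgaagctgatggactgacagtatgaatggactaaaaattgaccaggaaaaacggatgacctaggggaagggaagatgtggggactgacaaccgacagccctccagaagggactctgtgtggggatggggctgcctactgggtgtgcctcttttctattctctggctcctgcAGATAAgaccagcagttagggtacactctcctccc
Pfkm: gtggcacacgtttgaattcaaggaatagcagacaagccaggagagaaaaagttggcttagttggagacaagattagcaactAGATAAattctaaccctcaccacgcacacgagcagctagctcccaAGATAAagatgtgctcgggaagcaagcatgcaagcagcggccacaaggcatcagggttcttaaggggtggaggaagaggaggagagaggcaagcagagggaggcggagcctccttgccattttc
Hk3: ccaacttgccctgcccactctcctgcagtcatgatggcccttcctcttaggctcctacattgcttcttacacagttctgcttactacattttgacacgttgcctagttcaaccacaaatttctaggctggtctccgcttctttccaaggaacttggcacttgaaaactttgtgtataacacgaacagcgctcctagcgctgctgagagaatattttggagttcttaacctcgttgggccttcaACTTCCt
Ldha: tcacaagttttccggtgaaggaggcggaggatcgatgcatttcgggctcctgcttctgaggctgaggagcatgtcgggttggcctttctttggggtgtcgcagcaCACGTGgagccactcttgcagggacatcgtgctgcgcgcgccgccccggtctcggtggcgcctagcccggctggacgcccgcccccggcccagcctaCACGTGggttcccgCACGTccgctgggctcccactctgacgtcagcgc

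Motifs were counted from 250 bases before to 50 bases after each of the 16 starts of the 10 genes. AGATAA was found in 4 of the 16 windows, 1 of Pklr and 3 of Pfkm, of which a pair overlaps and shares a match, and in 11.2% of the 32851 windows of all genes. In Pklr the match began 35 bases before the first start, and the second Pklr window held none of the motifs searched. TGATAA, another spelling of the GATA motif, was found in the first Pfkm window alone among the 16 and in 9.05% of all windows. GGAAGT was found in 4 of 16 windows and 23.8% of all, and ACGTG, which lies inside the E-box CACGTG, in 6 of 16 and 19.6%. CCNCNCCC (KLF factors) was found in 9 of 16 windows and 49.5% of all, TTNCNNAA (C/EBP factors) in 7 of 16 and 40.7%, and CACGTG in 2 of 16 and 7.15%. A match of letters is not a binding site.

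All 10 genes differed between the fractions. In a limma model that kept the pool as a block, 5 were higher in Lin- cells (Hk1, Pfkl, Pfkm, Pklr and Ldha) and 5 in Gr1+Mac1+ cells (Hk2, Hk3, Gpi1, Pfkp and Ldhb). Of the 11489 genes tested, 51.6% passed as higher in Lin- cells and 30.4% as higher in Gr1+Mac1+ cells (82% in either direction), so the members' count of calls is near that of all genes. Rescaling by the median ratio changed the split over all genes to 4237 genes up in Lin- cells against 4699 up in Gr1+Mac1+ cells, where 5931 and 3491 were counted without it. A log2 ratio of at least 2 in size was found for 5 of the 10 genes and for 13.8% of all genes. The median size of the log2 ratio was 2.19 over the 10 genes and 0.85 over all genes tested. The 10 genes were chosen with earlier results of these data known, and these comparisons with all genes do not allow for that choice. All ratios here are Lin- over Gr1+Mac1+ on the scale of log2(FPKM + 1). Their median over all genes was 0.33, and the value after taking that off is given as the centred ratio. Each p-value rests on the spread among 3 pools that differ in genotype. For every gene the 3 libraries of a fraction lay above all 3 of the other, as they did for 85.8% of all genes.

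**Figure D1:**
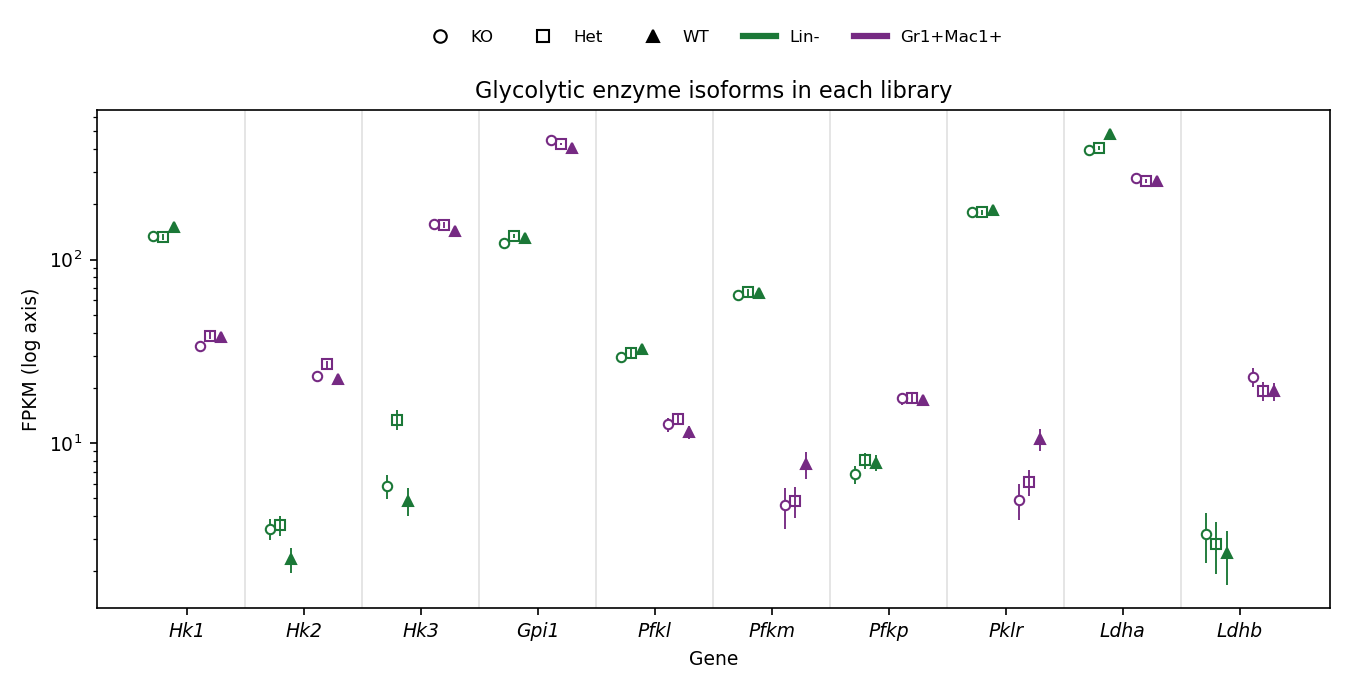
FPKM (log axis) of the 10 genes in each library, with KO, Het and WT from left to right within a fraction and Lin- (green) left of Gr1+Mac1+ (purple); bars are the deposited intervals. Pklr, Pfkm and Hk1 lie higher in all Lin- libraries, Hk3, Hk2 and Ldhb in all Gr1+Mac1+ libraries, and the Hk3 point of Het Lin- cells lies above those of KO and WT Lin- cells.

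Hexokinase traps glucose in the cell as glucose 6-phosphate, and its genes showed an exchange of the leading isoform. Hk1 (chromosome 10, 62268855 to 62379908, mm10), the form of most tissues and the main one of red cells, stood at 135 (KO), 133 (Het) and 151 FPKM (WT) in Lin- cells and at 34.0 (KO), 38.6 (Het) and 37.8 FPKM (WT) in Gr1+Mac1+ cells. Its log2 ratio was 1.90 (SE 0.07, adjusted p = 0.000109), centred 1.56. All Lin- values lay far above the Gr1+Mac1+ values, and the genotypes differed by much less within each fraction. The deposited interval of WT still lay above those of KO and Het in Lin- cells and above that of KO in Gr1+Mac1+ cells.

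Hk3 (chromosome 13, 55005985 to 55021385), a form known from myeloid cells, stood at 5.83 (KO), 13.4 (Het) and 4.83 FPKM (WT) in Lin- cells and at 156 (KO), 154 (Het) and 142 FPKM (WT) in Gr1+Mac1+ cells. The log2 ratio was -4.19 (SE 0.26, adjusted p = 0.000203), centred -4.52, and the mean level was 18.8 times higher in Gr1+Mac1+ cells. The 3 Gr1+Mac1+ libraries lay close together beside the gap between fractions, though the WT interval lay below those of KO and Het. The Het library was the highest of the Lin- libraries. Hk2 (chromosome 6, 82725027 to 82774454), the inducible form of muscle and of dividing cells, stood at 3.40 (KO), 3.57 (Het) and 2.33 FPKM (WT) in Lin- cells and at 23.1 (KO), 26.8 (Het) and 22.2 FPKM (WT) in Gr1+Mac1+ cells (log2 ratio -2.62, SE 0.10, adjusted p = 0.000109).

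As a share of the summed hexokinase FPKM, Hk1 made up 92.6% ± 3.52 (SD, n = 3) in Lin- cells and 17.4% ± 1.35 in Gr1+Mac1+ cells. Hk3 made up 5.36% ± 3.16 in Lin- cells and 71.3% ± 1.66 in Gr1+Mac1+ cells, and Hk2 2.07% ± 0.523 in Lin- cells and 11.3% ± 0.748 in Gr1+Mac1+ cells. The sum of the 3 genes differed less than the shares, at 151 ± 7.29 FPKM in Lin- cells and 212 ± 8.68 FPKM in Gr1+Mac1+ cells. It was 1.40 times higher in Gr1+Mac1+ cells, and 1.90 times after rescaling. With 3 pools the exact paired permutation test of a share (two-sided) cannot give a p below 0.25, which was its value for each share in this text.

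Gpi1 (chromosome 7, 34201327 to 34230305) has no isoform gene beside it, and its product turns glucose 6-phosphate into fructose 6-phosphate. Its level was 124 (KO), 134 (Het) and 132 FPKM (WT) in Lin- cells and 447 (KO), 426 (Het) and 408 FPKM (WT) in Gr1+Mac1+ cells. The log2 ratio was -1.71 (SE 0.07, adjusted p = 0.000111), and Gpi1 was the most abundant of the 10 in each Gr1+Mac1+ library.

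Phosphofructokinase makes the committing step and works as a tetramer of muscle (Pfkm), liver (Pfkl) and platelet (Pfkp) type subunits. Pfkm (chromosome 15, 98092589 to 98132447) stood at 63.9 (KO), 66.3 (Het) and 65.9 FPKM (WT) in Lin- cells and at 4.57 (KO), 4.85 (Het) and 7.66 FPKM (WT) in Gr1+Mac1+ cells. The log2 ratio was 3.34 (SE 0.14, adjusted p = 0.000112), centred 3.01. Among the Gr1+Mac1+ libraries WT was the highest, and its deposited interval (6.41 to 8.92) did not overlap those of KO (3.42 to 5.72) and Het (3.90 to 5.79).

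Pfkl (chromosome 10, 77986949 to 78009796) moved the same way by less, at 29.6 (KO), 31.0 (Het) and 32.4 FPKM (WT) in Lin- cells and 12.6 (KO), 13.6 (Het) and 11.5 FPKM (WT) in Gr1+Mac1+ cells (log2 ratio 1.24, SE 0.09, adjusted p = 0.000257). Pfkp (chromosome 13, 6579874 to 6648724) went the other way, with 6.78 (KO), 8.04 (Het) and 7.79 FPKM (WT) in Lin- cells and 17.5 (KO), 17.6 (Het) and 17.2 FPKM (WT) in Gr1+Mac1+ cells (log2 ratio -1.11, SE 0.08, adjusted p = 0.000276). The leading subunit thus differed between the fractions. Pfkm held 62.9% ± 0.801 of the summed level in Lin- cells and 15.9% ± 4.51 in Gr1+Mac1+ cells, and Pfkp 7.25% ± 0.446 in Lin- cells and 48.8% ± 1.56 in Gr1+Mac1+ cells (SD, n = 3). Pfkl held 29.8% ± 0.637 in Lin- cells and 35.2% ± 3.26 in Gr1+Mac1+ cells, the smallest difference of the 3. The sum was 104 ± 3.15 FPKM in Lin- cells and 35.7 ± 0.850 FPKM in Gr1+Mac1+ cells, so total phosphofructokinase was 2.91 times higher in Lin- cells (2.15 times after rescaling), the reverse of hexokinase and Gpi1.

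Pyruvate kinase makes pyruvate and ATP in the last step of glycolysis. Pklr (chromosome 3, 89136142 to 89146594) encodes the liver and red cell forms from separate starts, and the deposited value is one per gene. It stood at 183 (KO), 181 (Het) and 186 FPKM (WT) in Lin- cells and at 4.87 (KO), 6.15 (Het) and 10.5 FPKM (WT) in Gr1+Mac1+ cells. The log2 ratio was 4.55 (SE 0.19, adjusted p = 0.000110), centred 4.22, the largest of the 10 in size. The Lin- libraries lay close together, and among Gr1+Mac1+ cells WT was the highest.

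The other pyruvate kinase gene, Pkm, is listed under its older name Pkm2 and is not among the 10. A value per gene does not separate its M1 and M2 splice forms. It stood at 51.2 (KO), 77.2 (Het) and 42.9 FPKM (WT) in Lin- cells and at 662 (KO), 669 (Het) and 623 FPKM (WT) in Gr1+Mac1+ cells (log2 ratio -3.53, adjusted p = 0.000116). Of the summed pyruvate kinase FPKM, Pklr held 78.1% (KO), 70.1% (Het) and 81.3% (WT) in Lin- cells and 0.731% (KO), 0.912% (Het) and 1.65% (WT) in Gr1+Mac1+ cells. The Het library had the lowest Pklr share among Lin- cells. Its Pkm2 level was the highest of them, and its Pklr level lay within the deposited intervals of KO and WT.

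Lactate dehydrogenase turns pyruvate into lactate and back, as a tetramer of A and B subunits. Ldha (chromosome 7, 46845804 to 46855627), the subunit of muscle, stood at 395 (KO), 405 (Het) and 482 FPKM (WT) in Lin- cells and at 280 (KO), 269 (Het) and 267 FPKM (WT) in Gr1+Mac1+ cells. Its log2 ratio of 0.65 (SE 0.09, adjusted p = 0.00263) was the smallest in size of the 10, and rescaling by the median ratio of all genes left 0.21, which did not pass (adjusted p = 0.10). Ldhb (chromosome 6, 142490249 to 142507943), the subunit of heart, stood at 3.19 (KO), 2.82 (Het) and 2.50 FPKM (WT) in Lin- cells and at 22.9 (KO), 19.3 (Het) and 19.2 FPKM (WT) in Gr1+Mac1+ cells (log2 ratio -2.48, SE 0.07, adjusted p = 0.000109). Unlike the other enzymes, lactate dehydrogenase kept its leading gene: Ldha held 99.3% ± 0.144 of the sum in Lin- cells and 93.0% ± 0.497 in Gr1+Mac1+ cells (SD, n = 3). The sum was 430 ± 47.4 FPKM in Lin- cells and 292 ± 9.32 FPKM in Gr1+Mac1+ cells, a ratio of 1.47 that became 1.09 after rescaling.

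**Figure D2:**
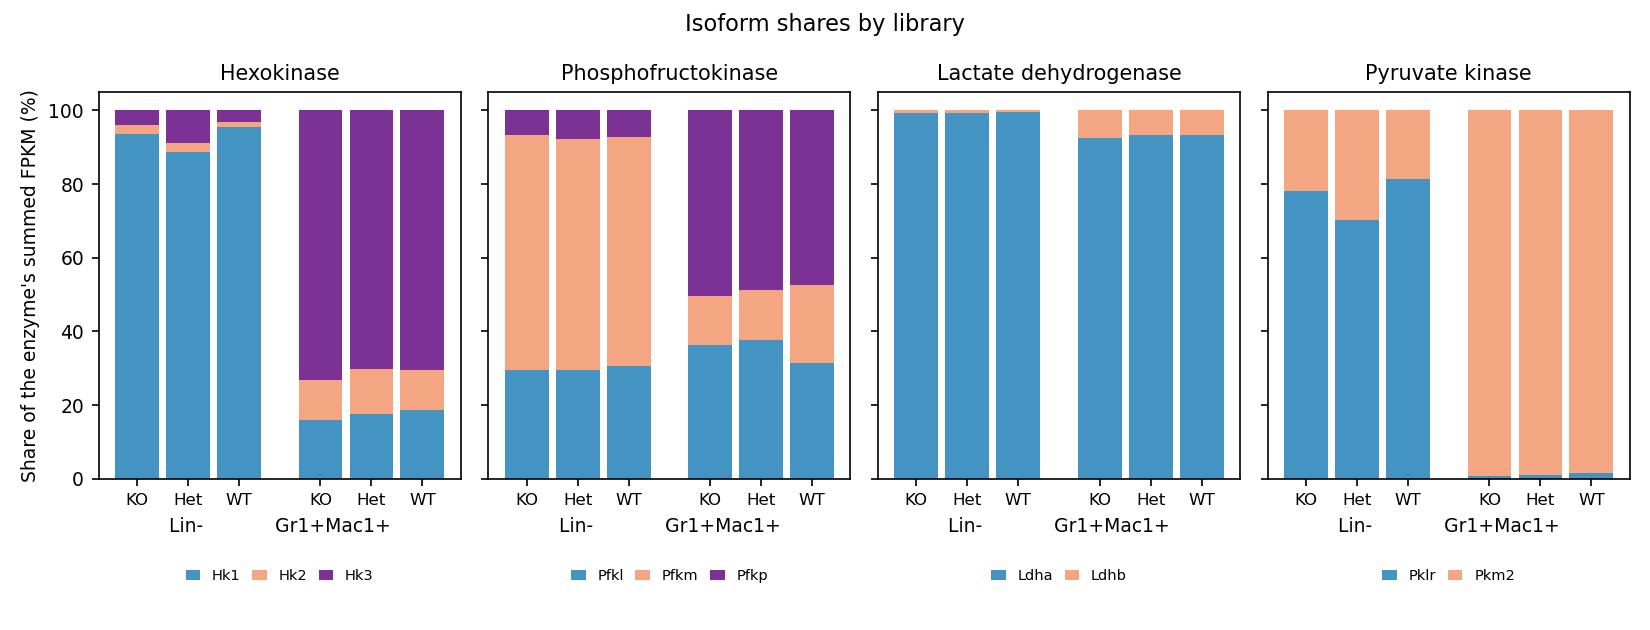
Share of each isoform gene in the summed FPKM of its enzyme (percent), with 1 bar per library, KO, Het and WT within each fraction. Hk1, Pfkm and Pklr hold most of the Lin- bars and Hk3, Pfkp and Pkm2 the largest part of the Gr1+Mac1+ bars, while Ldha holds more than 92% of every bar.

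Ranked by level in one library, Ldha came first and Pklr second in each Lin- library. Hk1 and Gpi1 followed, with overlapping deposited intervals in the Het library. Hk2 and Ldhb were the lowest of the 10 in all 3 Lin- libraries, and their intervals overlapped. In Gr1+Mac1+ cells the order began with Gpi1, Ldha and Hk3, and ended with Pklr and Pfkm. The intervals of these last 2 overlapped in KO and Het cells. In KO and WT cells those of Hk2 and Ldhb overlapped as well.

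The rest of the pathway leaned toward Gr1+Mac1+ cells. Of 17 genes listed for the other glycolytic steps, 12 were tested, 10 of them higher in Gr1+Mac1+ cells and 1, Tpi1, in Lin- cells (median log2 ratio -1.26, against 0.33 for all genes). Over all genes the shares were 30.4% and 51.6%. Pgam1, phosphoglycerate mutase, stood at 42.1 (KO), 47.4 (Het) and 44.7 FPKM (WT) in Lin- cells and at 229 (KO), 214 (Het) and 210 FPKM (WT) in Gr1+Mac1+ cells. Adpgk, which phosphorylates glucose with ADP, had a log2 ratio of -3.22, Ldhc, the testis form of lactate dehydrogenase, one of -2.32 at no more than 5.25 FPKM, Pgk1 one of -1.05 and Gapdh one of -0.47. Ldhc stood at 0 (KO), 0.484 (Het) and 0 FPKM (WT) in Lin- cells and at 5.25 (KO), 4.85 (Het) and 4.11 FPKM (WT) in Gr1+Mac1+ cells. Ldhc is a close relative of Ldha, and a split of fragments between them was not tested. Bpgm, which makes the 2,3-bisphosphoglycerate of red cells, was higher in Gr1+Mac1+ cells (log2 ratio -1.31), as were Alas2 and Slc4a1 of the erythroid markers.

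Among 9 glucose and lactate transport genes, 6 were higher in Gr1+Mac1+ and 3 in Lin- cells, beside 30.4% and 51.6% of all genes. The glucose transporters Slc2a6 (log2 ratio -3.93) and Slc2a3 (-2.50) and the lactate exporter Slc16a3 (-3.83) were higher in Gr1+Mac1+ cells, and the transporter Slc2a8 (2.01) in Lin- cells. So were Slc16a1 (1.94), another lactate transporter, at 59.2 ± 4.06 FPKM in Lin- cells and 14.7 ± 1.39 FPKM in Gr1+Mac1+ cells (SD, n = 3), and Bsg (1.19), the partner protein of both lactate transporters, at 347 ± 26.7 FPKM in Lin- cells and 152 ± 12.8 FPKM in Gr1+Mac1+ cells. Of 5 genes that set the level of the phosphofructokinase activator fructose 2,6-bisphosphate, Pfkfb4 (-3.30), Pfkfb3 (-2.29) and Tigar (-1.40, listed as 9630033F20Rik) were higher in Gr1+Mac1+ and Pfkfb2 (1.02) in Lin- cells.

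Of 12 tested genes of mitochondrial pyruvate uptake and the pyruvate dehydrogenase complex with its kinases and phosphatases, 9 were higher in Lin- cells and 1 in Gr1+Mac1+ cells (median log2 ratio 0.99), beside 51.6% and 30.4% of all genes. The genes of the mitochondrial pyruvate carrier were not among the 9. Brp44 (now Mpc2) was higher in Gr1+Mac1+ cells (-0.90, adjusted p = 0.00408) and Brp44l (now Mpc1) had a log2 ratio of 0.03 that did not pass. After rescaling the count was 8 against 3. The pyruvate dehydrogenase subunit Dlat (1.56) and Dld (1.08), the shared subunit of several dehydrogenases, were among the 9, as were the kinases Pdk1 (1.74) and Pdk2 (1.18), which turn the complex off. Of 9 pentose phosphate genes, 6 were higher in Gr1+Mac1+ cells, among them Pgd (-2.35), G6pdx (-1.81) and Taldo1 (-0.89). The 2 that were higher in Lin- cells included Rpia (1.02). Of 11 genes of gluconeogenesis and glycogen tested, 6 were higher in Gr1+Mac1+ cells, among them the glycogen phosphorylase Pygl (-3.83), the glycogen synthase Gys1 (-2.36), Ugp2 (-2.33) and the branching enzyme Gbe1 (-2.08), and 4 in Lin- cells. Counts without the Het pool were the same in these lists, but for 5 in place of 6 transport genes in Gr1+Mac1+ cells.

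Of 10 tested transcription factors in a list on glycolysis and blood lineages, 3 were higher in Lin- cells and 6 in Gr1+Mac1+ cells, where 82% of all genes passed in either direction. Arnt, the partner of hypoxia-inducible factors, did not pass (0.11). Myc, a growth regulator that acts on glycolytic genes, averaged 79.9 ± 9.82 FPKM in Lin- cells and 14.6 ± 1.01 FPKM in Gr1+Mac1+ cells (SD, n = 3; log2 ratio 2.37). The erythroid factor Klf1 had a log2 ratio of 3.18. Gata1, another, stood at 124 (KO), 124 (Het) and 122 FPKM (WT) in Lin- cells and at 11.4 (KO), 13.5 (Het) and 19.9 FPKM (WT) in Gr1+Mac1+ cells. Cebpe and the gene of PU.1, listed as Sfpi1, both factors of granulocyte formation, had ratios of -5.50 and -3.96. Without the Het pool that of Cebpe was -6.26. Hif1a, the hypoxia-inducible subunit, stood at 5.47 (KO), 5.27 (Het) and 4.90 FPKM (WT) in Lin- cells and at 12.1 (KO), 10.95 (Het) and 12.4 FPKM (WT) in Gr1+Mac1+ cells.

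**Figure D3:**
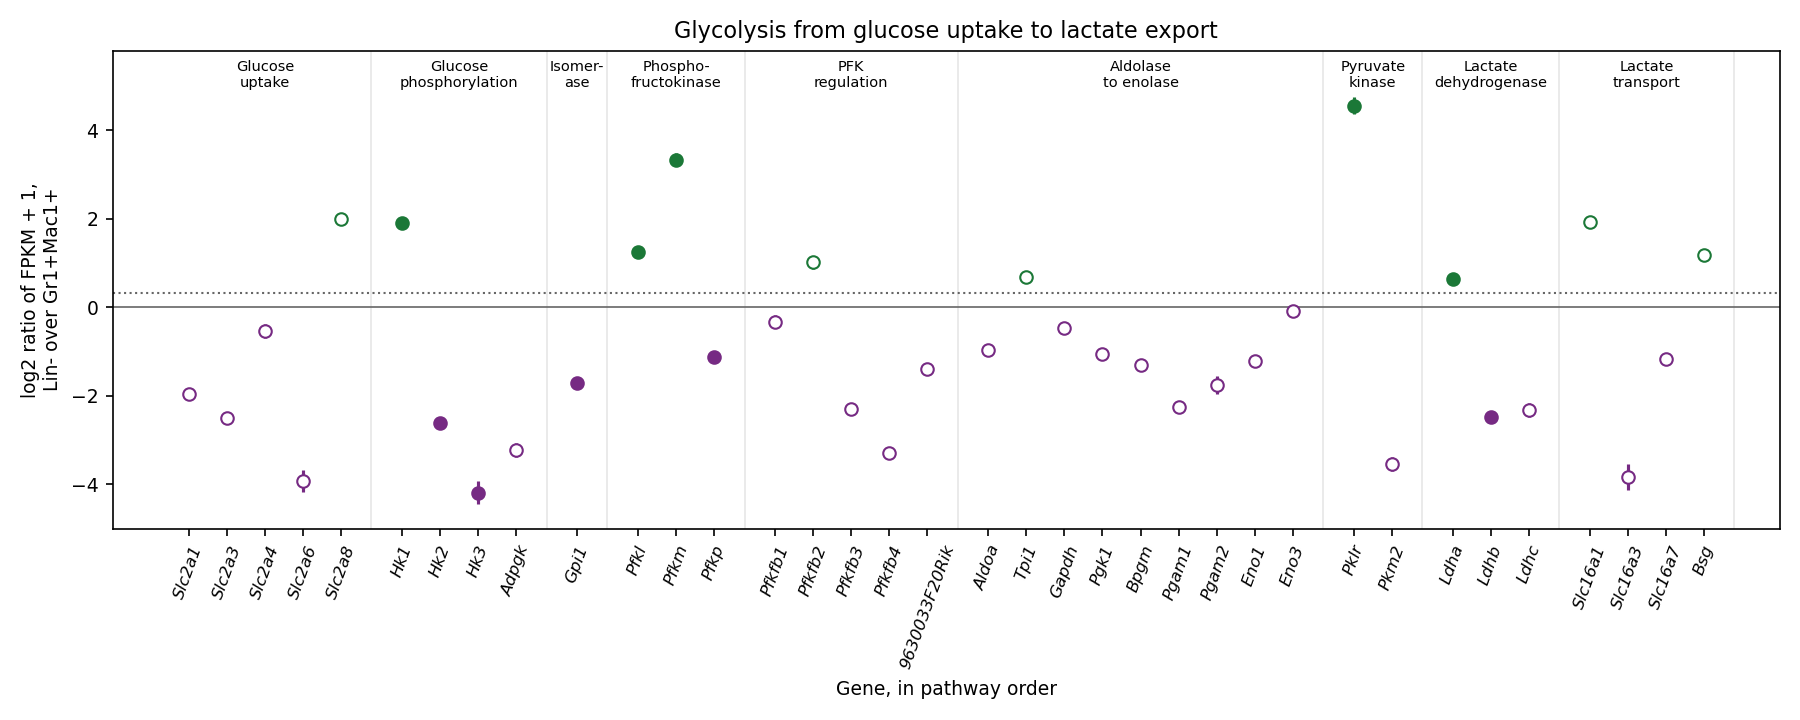
Log2 ratio of FPKM + 1, Lin- over Gr1+Mac1+ (limma, bars are SE), of the tested genes from glucose uptake to lactate export, transcription factors left out, in pathway order; filled points are the 10 genes, and the dotted line is the median of all genes, 0.33. Pklr at 4.55 and Pfkm at 3.34 lie highest of the genes plotted, and Hk3 at -4.19 lies lowest.

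The genes whose levels across the 6 libraries most resembled those of Hk3 included Rhou, Lrrk2, Anxa3 and Rasgrp4. Likeness was the root mean square difference of log2(FPKM + 1) after centring, searched over 7856 genes with a mean of at least 5 FPKM, and was 0.04 for Rhou and 0.07 for Rasgrp4. Anxa3, an annexin, stood at 3.59 (KO), 9.44 (Het) and 3.27 FPKM (WT) in Lin- cells and at 114 (KO), 101 (Het) and 96.4 FPKM (WT) in Gr1+Mac1+ cells. For Pklr the 5 were Sphk1 (0.08), Ces2g, Atp7b, Prss50 and Atp1b2 (0.30). Sphk1, a sphingosine kinase, stood at 154 (KO), 140 (Het) and 159 FPKM (WT) in Lin- cells and at 4.56 (KO), 5.06 (Het) and 8.51 FPKM (WT) in Gr1+Mac1+ cells. These values describe 6 libraries that fall into 2 fractions.

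Within a fraction each genotype has 1 library, so a genotype difference there has no test. An effect of genotype shared by both fractions was not tested. A gene was called by size: at least 2-fold on the scale of log2(FPKM + 1), at least 5 FPKM in the higher library and deposited intervals that do not overlap. Het and KO share the WT libraries. Hk3 in Het against WT Lin- cells was the only call among the 10 genes and the 4 comparisons. Its level was 13.4 FPKM in Het (deposited interval 11.8 to 15.1) and 4.83 FPKM in WT cells (3.99 to 5.68), a log2 ratio of 1.31 (SE from counting 0.14). By the same rule 1.7% of 8369 genes were higher and 0.0836% lower in that comparison. With a pseudocount of 5 in place of 1 the log2 ratio was 0.91 and Hk3 was no longer called.

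The Het Lin- library also held the neutrophil transcripts described above, and their values are set beside Hk3, on a scale chosen after the data were seen. The excess of Het over WT Lin- cells was expressed as a percentage of the gap between WT Gr1+Mac1+ and WT Lin- cells. It was 6.26% for Hk3 (counting SE 0.688), 6.26% for Hk2 (1.48) and 5.90% for Pkm2 (0.399), and it ranged from 3.64% to 5.76% over the 12 neutrophil markers (median 5.58%). It was 0.965% for Gpi1 (1.01), 1.87% for Ldhb (3.71) and 2.70% for Pfkp (6.10), each smaller than its counting SE. In KO Lin- cells the same percentage was 0.727% for Hk3 (0.447) and between -3.85% and 0.0826% for the markers. Hk2 stood at 5.42% (1.49) in KO cells, its KO level of 3.40 FPKM lying close to the Het level of 3.57. Pkm2 stood at 1.43% (0.354), Gpi1 at -2.92% (1.003), Pfkp at -10.8% (5.92) and Ldhb at 4.14% (3.90) in the same KO library. Each of these was larger in size than its counting SE. The part of neutrophil transcripts in the Hk3 level of Het Lin- cells was not tested. Slc16a3, at 7.22 FPKM in Het and 2.05 in WT Lin- cells, and Pygl, at 29.6 FPKM in Het and 13.9 in WT Lin- cells, were also called in this comparison. So was Cebpe, at 6.50 FPKM in Het and 0.284 in WT Lin- cells.

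**Figure D4:**
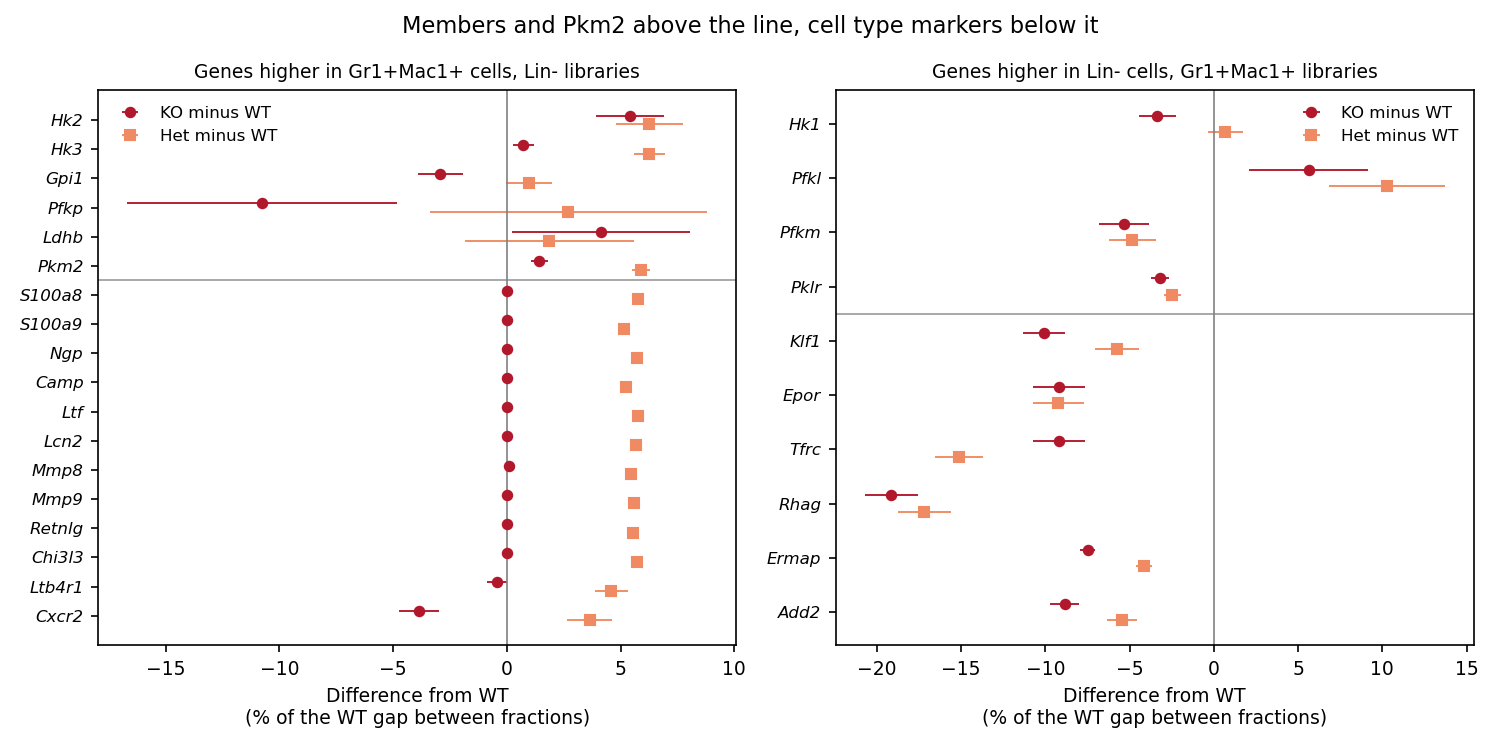
Difference of the KO (red circles) and Het (orange squares) library from WT as a percentage of the WT gap between fractions, with counting SE; genes higher in Gr1+Mac1+ cells are shown for the Lin- libraries on the left, genes higher in Lin- cells for the Gr1+Mac1+ libraries on the right. On the left Hk3, Hk2 and Pkm2 of Het cells lie at 5.90% to 6.26%, beside markers at 3.64% to 5.76%. In KO cells Hk3 lies at 0.727%, Hk2 at 5.42% and Pkm2 at 1.43%, beside markers at -3.85% to 0.0826%. On the right Pklr (-3.19% in KO, -2.46% in Het) and Pfkm (-5.32% in KO, -4.84% in Het) lie below 0. Pfkl lies above it (5.63% in KO, 10.3% in Het), and Hk1 lies at -3.35% in KO and 0.687% in Het. The 6 erythroid markers lie at -19.1% to -7.49% in KO and -17.2% to -4.14% in Het. Ldha, also higher in Lin- cells, is not plotted.

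In KO against WT Lin- cells none of the 10 genes passed, where 0.182% of 8262 genes were higher and 0.0484% lower, and log2 ratios ran from -0.29 to 0.40. Of the 8 members with at least 5 FPKM, 3 had intervals that did not overlap (16.4% of all 8262 genes at that level). They were Ldha, at 395 FPKM in KO and 482 in WT cells, Hk1, at 135 FPKM in KO and 151 in WT cells, and Gpi1, at 124 FPKM in KO and 132 in WT cells. The intervals of Hk2, below 5 FPKM, did not overlap either. The Het Lin- library had Ldha at 405 and Hk1 at 133 FPKM, against the same WT library. The intervals of Pklr and Pfkm overlapped those of WT in both mutant Lin- libraries.

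In Gr1+Mac1+ cells none of the 10 passed in KO (0.0599% of 8353 genes higher, 0.132% lower) or Het (0.048% of 8326 higher, 0.132% lower). The gene nearest to a call was Pklr, with 4.87 FPKM in KO (3.79 to 5.95) and 10.5 FPKM in WT cells (9.06 to 11.9), a log2 ratio of -0.97 (counting SE 0.16). It was called with a pseudocount of 0.1, at -1.09. The Het level was 6.15 FPKM (5.15 to 7.15; log2 ratio -0.68). Pfkm had log2 ratios of -0.64 in KO and -0.57 in Het cells, with intervals apart from WT in both. Erythroid markers were lower in the same libraries. All 12 had a negative log2 ratio in KO (median -0.91, 2 of them, Klf1 and Rhag, past the size rule) and in Het cells (median -0.52, none past it), and their sum was 331 (KO), 390 (Het) and 560 FPKM (WT). As a percentage of the WT gap between fractions, the KO differences of Pklr (-3.19%, counting SE 0.517) and Pfkm (-5.32%, 1.49) were smaller than those of the 6 erythroid markers at least 2-fold higher in WT Lin- than in WT Gr1+Mac1+ cells (-19.1% to -7.49%). In Het cells Pklr stood at -2.46% (0.503), Pfkm at -4.84% (1.38) and the markers at -17.2% to -4.14%. The part of erythroid transcripts in the Pklr and Pfkm levels of Gr1+Mac1+ cells was not tested. Hk1, also higher in Lin- cells, stood at 34.0 (KO), 38.6 (Het) and 37.8 FPKM (WT). Its KO interval (32.2 to 35.8) lay below that of WT (36.2 to 39.4), a difference of -3.35% of the WT gap (counting SE 1.08). In Het cells the Hk1 difference was 0.687% (1.05). Pfkl stood at 12.6 (KO), 13.6 (Het) and 11.5 FPKM (WT), or 5.63% (3.53) in KO and 10.3% (3.43) in Het cells. Neither gene rose from KO to Het to WT as Pklr did. Ldha, also higher in Lin- cells, was not set against the WT gap. Its levels were 280 (KO), 269 (Het) and 267 FPKM (WT), and the KO and Het intervals overlapped that of WT.

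Small differences with intervals apart were seen in genes abundant in Gr1+Mac1+ cells. Hk3 had log2 ratios of 0.13 in KO and 0.11 in Het against WT cells, and Gpi1 of 0.13 in KO and 0.06 in Het cells. Hk2 had one of 0.26 in Het cells, while in KO cells (0.05) its interval overlapped that of WT. In all, 5 of the 10 in KO and 6 in Het cells had intervals apart from WT. Of genes with at least 5 FPKM in the higher library, 12.9% of 8353 in KO and 20.3% of 8326 in Het cells had intervals apart. Interval width differs with level, with a half-width of 1.55% of the value for Gpi1 and 16.4% for Pfkm in WT Gr1+Mac1+ cells. These shares are not matched for level. The intervals cover counting error only, so the spread between pools of 1 genotype is not known.

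**Figure D5:**
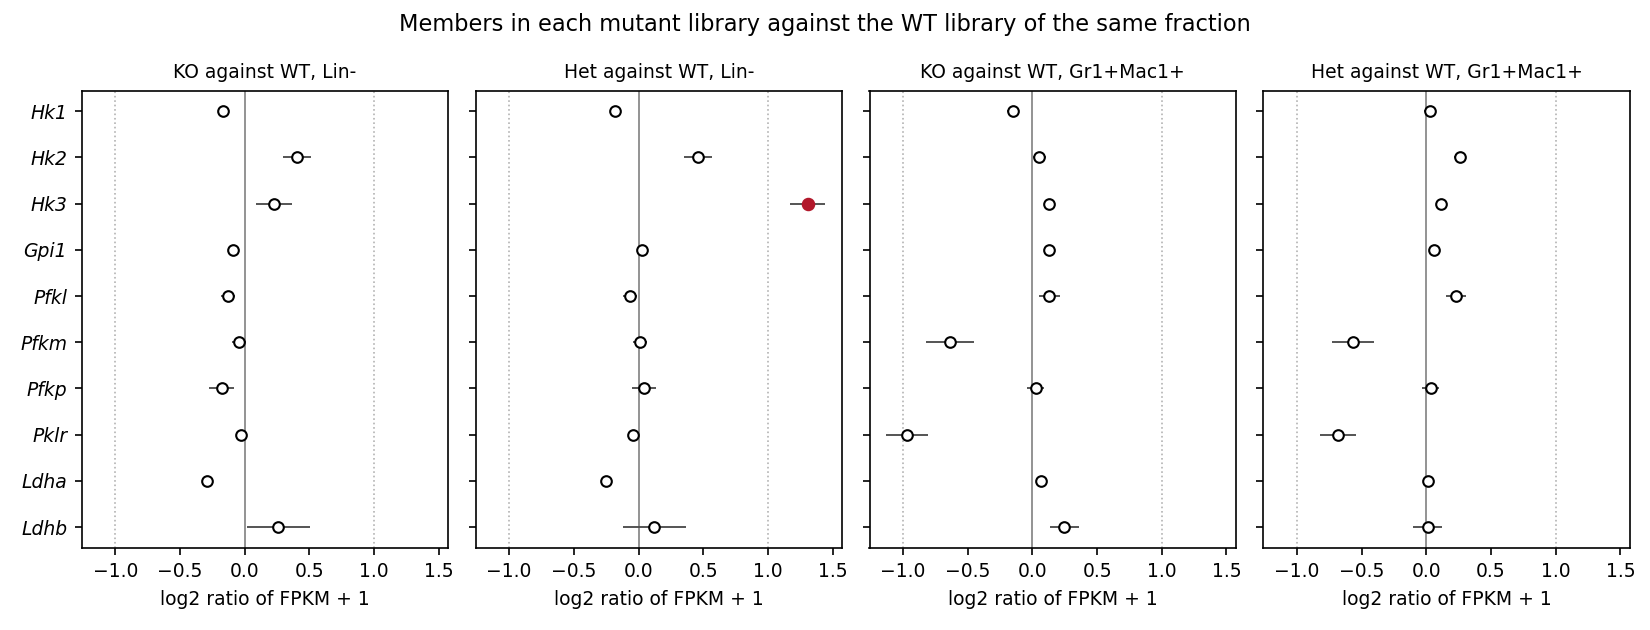
Log2 ratio of FPKM + 1 of the 10 genes in KO and Het against the WT library of the same fraction, with SE from counting; dotted lines mark 2-fold and the filled point is the gene past the size rule. Hk3 lies at 1.31 in Het Lin- cells, and Pklr at -0.97 in KO and -0.68 in Het Gr1+Mac1+ cells.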

How the data were processed

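The deposited FPKM of each gene locus, with its lower and upper bound and a status, were made by the authors, 1 table per library, per the file headers. The submitters' processing notes name TopHat2 2.0.7, Cufflinks 2.0.2 and build mm10, without their roles; no annotation is given in the sources used here. No fragment counts are in these tables, so depth is not known directly. The distance from a value to its bound was read as 1.96 SE and covers counting error only. Locus starts were read as 0-based, since 11606 equalled the RefSeq gene start after adding 1 and 699 without, and are printed 1-based.

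FPKM is relative to the library total. Its top 10 genes made up 8.72% to 10.5% of all FPKM in Lin- cells and 25.1% to 27.8% in Gr1+Mac1+ cells. For the fractions, limma 3.58.1 under R 4.3.3 took log2(FPKM + 1), a trend and the pool as a block, over 11489 genes with a mean of at least 1 FPKM and status OK, with Benjamini-Hochberg adjustment; the code was tested on simulated data. Per the labels' protocols, the same mice gave both fractions of a pool, which makes the pairing; their deviations correlated by -0.01 (KO), -0.06 (Het) and 0.10 (WT). No test compared genotypes. Of 175 list symbols 169 matched as given and 5 by an older symbol. All members are named, with up to 4 passing genes per sugar metabolism list, those past the size rule, and Pkm2, Gapdh and Pgk1. Bpgm, Tpi1, Slc16a1, Bsg, Brp44, Brp44l, Hif1a, Arnt, Myc, Kit, Ly6a, Cd34, Flt3, Alas2, Slc4a1 and Rhag were named after their values were seen. A gene that the likeness rule names for Hk3 is not reported here. Members and lists were chosen with earlier results of these data known. Promoter windows of all 10 members are from RefSeq. Python 3.11.15 with pandas 2.3.3 ran the remaining steps.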

Additional observations from a re-analysis of the deposited data

How the results depend on the processing

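All 10 genes kept their direction between fractions under the 10 alternatives (pseudocounts 0.1 and 5, no filter or a mean of at least 5 FPKM, rescaling by the median ratio, no replicate block for the pool, no trend, and each pool left out), and 9 kept an adjusted p under 0.05 in all of them, with 0.00499 as the highest. Ldha was the exception, with 0.21 and an adjusted p of 0.10 after rescaling. Without the replicate block the counts of genes stayed within 1.5 times and no member changed its call. The differences in isoform share moved by more than the spread over pools in 1 case, the share of Ldha, 7.77 percentage points higher in Lin- cells with Ldhc in the sum.

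Counts by the size rule moved with most settings. They are given as higher and then lower for KO Lin-, Het Lin-, KO Gr1+Mac1+ and Het Gr1+Mac1+ cells against WT, and were 15 and 4, 142 and 7, 5 and 11, and 4 and 11 by the rule itself. At 1.5-fold they were 49 and 36, 240 and 12, 29 and 87, and 19 and 54, and the members lower were 2 (Pklr and Pfkm) in KO and 1 (Pklr) in Het Gr1+Mac1+ cells. At 3-fold the counts that moved were 3 higher, 86 higher, 3 and 2, and 2 and 3, and no member was left in Het Lin- cells (0). Without the interval criterion they were 57 and 48, 46 lower, 44 and 51, and 40 and 46. With 1 FPKM as the minimum they were 26 higher, 245 higher, 14 and 20, and 20 lower. With a pseudocount of 5 they were 7 higher, 86 higher, 3 and 3, and 2 and 5, with 0 members in Het Lin- cells. With a pseudocount of 0.1 they were 9 lower, none moved in Het Lin- cells, 21 lower with 1 member (Pklr), and 7 higher. The Pkm2 ratio of 0.83 in Het Lin- cells passed at 1.5-fold. The cause was not tested in these cases.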
